A study of Mus musculus with 11 samples.

Results

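The comparison described here set 3 heart apexes irradiated with FLASH protons (F-PRT) against 4 apexes of unirradiated hearts (NR), using the RNA-seq of C57BL/6 mice. These 7 libraries were taken from a series of 11, in which the other 4 received protons at the standard dose rate (S-PRT). F-PRT animals received a single focal dose of 40 Gy to the apex and were sampled 2 weeks later, and NR animals received no treatment. The F-PRT libraries carry the numbers 2, 3 and 4 and the NR libraries the numbers 1 to 4. Age and sex are not given in the sources used here, nor whether each library came from a separate animal, so that p-values measure only the spread between these libraries. The question was which transcripts differed after FLASH irradiation, and which of those differences followed transcript length.

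FLASH radiotherapy delivers the whole dose at an ultra-high dose rate, and is studied because normal tissue may tolerate it better than the same dose given slowly. Ionizing radiation breaks DNA and activates the transcription factor p53, whose targets halt the cell cycle (Cdkn1a), promote apoptosis (Bax) or feed back on p53 itself (Mdm2). Irradiated tissue can also switch on interferon-stimulated genes, draw in monocytes through chemokines and, over weeks to months, replace muscle by collagen. Transcript length matters in a different way: a longer transcript yields more fragments, and a library in which long or short transcripts were recovered less well shifts every gene of that length at once.

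Of 55414 genes in the tables, 14208 had enough reads to be tested. With counts as deposited, 2060 genes differed between F-PRT and NR, 1156 higher and 904 lower, by edgeR's quasi-likelihood test at a Benjamini-Hochberg adjusted p under 0.05. These were 8.14% of the tested genes in the higher direction and 6.36% in the lower. Changes of at least 2-fold made up 217 of the higher and 132 of the lower calls. A second fit removed from each library its own smooth trend on effective length, the number of positions on a transcript from which a fragment can start. It called 141 genes higher, 0.992% of those tested, and 59 lower, 0.415%. In both fits and in the same direction stood 164 genes (113 higher and 51 lower), here termed kept, 7.96% of the first set. Another 1896 were called only as counted and are termed lost, and 36 were called only after removal and are termed gained. No call turned its direction.

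The trend on length, taken relative to the 7-library mean, differed between the 2 groups. Centring on that mean ties the signs of the groups together, so only their difference is informative. Spearman's correlation across genes between a library's log2 CPM (counts divided by the TMM-scaled library size, centred on the 7-library mean) and effective length was 0.363, 0.386, 0.38 and 0.441 in NR 1 to 4. In F-PRT 2, 3 and 4 it was -0.291, -0.179 and -0.58. Every F-PRT value lay below every NR value, and F-PRT 4 lay farthest from the rest. The difference of the group means was -0.742, with an exact two-sided permutation p of 0.029, the smallest that 35 groupings allow, and 0.058 after adjustment over 8 library measures. The correlation with GC content also separated the groups, at -0.21 to -0.0405 in NR and -0.0325 to 0.219 in F-PRT (exact permutation p = 0.029, adjusted 0.058). The median difference between annotated and effective length over genes longer than 5000 bases, which tracks the fragment length of a library, was 226 to 233 bases in NR and 207 to 222 in F-PRT (exact permutation p = 0.029, adjusted 0.058). What produced these library differences was not tested.

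**Figure D1:**
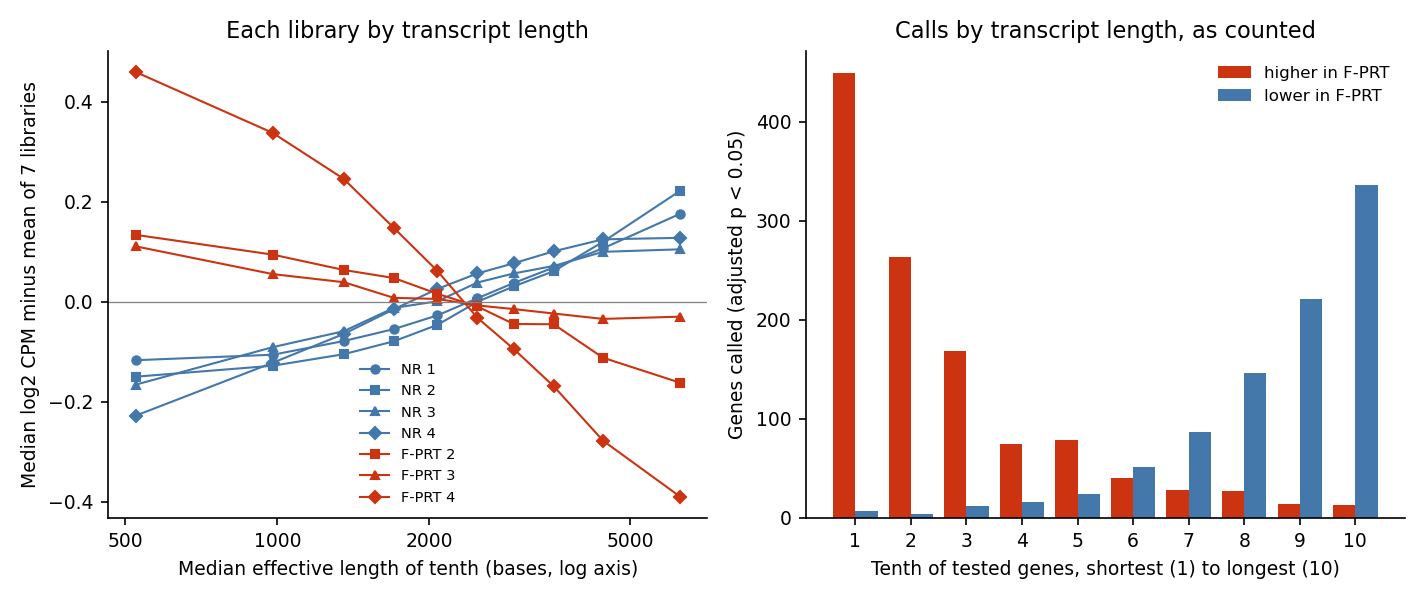
Left, the median log2 CPM of each library minus the mean of all 7, in 10 groups of genes ordered by effective length (log axis, bases). Relative to that mean, NR libraries (blue) rise and F-PRT libraries (red) fall with length, F-PRT 4 most steeply. Right, genes called higher or lower in the same 10 groups, from 449 higher and 7 lower among the shortest to 13 and 336 among the longest.

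Sorted into 10 equal groups by length, the genes moved in order. In the shortest group, with a median effective length of 524 bases, the median log2 fold change of F-PRT over NR was 0.42, and 449 genes were called higher against 7 lower. In the longest, with a median of 6268 bases, it was -0.37, with 13 called higher and 336 lower. The 10 medians fell without exception from the shortest to the longest group. On log2(TPM + 1), which divides by length within each library, the same medians ran from 0.34 to -0.19. With the trend removed they lay between -0.01 and 0.02. Higher calls that were lost had a median effective length of 886 bases and lower ones 4522, while the kept calls stood at 2376 and 3337 bases.

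**Figure D2:**
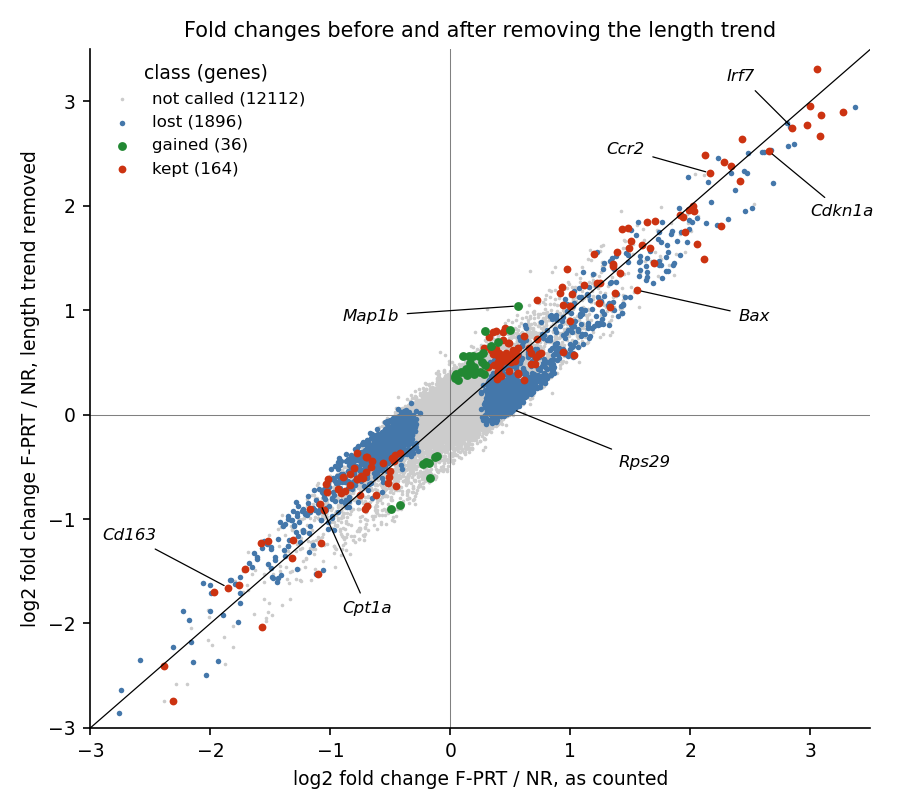
Log2 fold change of F-PRT over NR as counted (horizontal) and with the length trend removed (vertical), 1 point per tested gene, coloured by class, with the line of equality. Most of the 164 kept genes (red) lie near the line, and most of the 1896 lost genes (blue) lie between the line and zero; 23 genes fall outside the plotted range.

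Depth was 27780213 to 37372372 expected counts in NR and 20758170 to 28571465 in F-PRT, and mitochondrially encoded genes took 30.6 to 43.8% and 24.2 to 42.3% of them. The counts of calls changed strongly when 1 library was left out. As counted, 39 genes were called without NR 1, 331 without NR 2, 80 without NR 3, 58 without NR 4 and 386 without F-PRT 2, but 3476 without F-PRT 3 and 1516 without F-PRT 4. With the length trend removed, the corresponding counts were 17, 33, 20, 27, 12, 847 and 380. Genes with an unadjusted edgeR p under 0.05 as counted varied less, at 5002 with all 7 libraries and 3959 to 5835 without 1. The ventricular myosin light chain genes Myl2 (7952 to 14933 TPM over the 7 libraries) and Myl3 (4471 to 10255 TPM) were abundant. The atrial genes Myl7 and Sln reached at most 0.86 and 0.11 TPM. Other atrial genes stood higher, with Myl4 at up to 3.11 TPM and Nppa at 78.8 to 109 TPM in NR and 155 to 313 TPM in F-PRT. The 13 atrial and conduction genes summed to 102 to 137 TPM in NR and 177 to 344 TPM in F-PRT. In these bulk samples, fewer cells of a type and less RNA per cell cannot be told apart.

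Several p53 targets were called in both fits. Of 32 tested genes on the p53 list, 17 were higher and 1 (Rrm2b, a ribonucleotide reductase subunit) lower as counted, and 10 were kept. Over all tested genes, 8.14% were called higher and 6.36% lower as counted, the shares beside which this and later list counts stand. The list's median log2 fold change was 0.67 as counted and 0.685 with the trend removed, against 0.01 over all tested genes in both fits. The list's median effective length, 2303 bases, is close to the 2280 bases of all tested genes, where the removed trend is near 0, so a steady median says little about length. Cdkn1a, the cyclin-dependent kinase inhibitor p21, measured 5.25, 6.59, 9.85 and 11.6 CPM in NR and 61.1, 41.2 and 56.5 CPM in F-PRT. All 3 F-PRT libraries stood far above every NR library. Its log2 fold change was 2.65 ± 0.25 (SE; edgeR adjusted p = 0.0023), and 2.52 ± 0.24 with the trend removed (edgeR adjusted p = 0.0043).

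Phlda3, which restrains AKT at the membrane, measured 5.46, 6.16, 8.40 and 8.41 CPM in NR and 28.5, 23.9 and 30.7 CPM in F-PRT. The groups were far apart, and its log2 fold change of 1.95 ± 0.17 was 1.75 ± 0.15 with the trend removed (edgeR adjusted p = 0.00347). Bax, the pore-forming effector of apoptosis, measured 9.6 to 13 CPM in NR and 27.0 to 38.4 CPM in F-PRT. Bax is short (656 bases), and its log2 fold change moved from 1.56 ± 0.14 to 1.19 ± 0.12 while remaining called. Gdf15, a secreted stress hormone, was near 0 in NR at 0.351 to 0.952 CPM and measured 8.66, 2.38 and 3.98 CPM in F-PRT, without overlap (log2 fold change 2.97 ± 0.45).

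The other kept p53 targets had effective lengths of 2105 to 7194 bases. Eda2r, a member of the TNF receptor family, rose from 1.81 ± 0.385 CPM (SD, n = 4) to 4.83 ± 0.968 CPM (SD, n = 3). Zmat3, an RNA-binding p53 target with an effective length of 7194 bases, had a log2 fold change of 0.72 ± 0.14 as counted and 1.10 ± 0.11 with the trend removed. Trp53inp1, a stress-induced regulator of autophagy and p53 activity, went likewise from 0.93 ± 0.14 to 1.23 ± 0.13. Sesn2 (a sestrin), Aen (an apoptosis-enhancing nuclease) and Gtse1 (a G2 regulator) had log2 fold changes of 1.02, 0.65 and 2.34 as counted.

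Several canonical p53 targets were not called. Mdm2, the p53 ubiquitin ligase, measured 41.1 to 46.0 CPM in NR and 50.6, 52.2 and 40.3 CPM in F-PRT, with F-PRT 4 below all NR libraries (log2 fold change 0.15 ± 0.10, edgeR adjusted p = 0.331). Ccng1 (cyclin G1) and the death receptor Fas had log2 fold changes of -0.09 ± 0.13 and -0.02 ± 0.24. Dcxr, a carbonyl reductase, rose from 5.81 to 12.7 CPM on average as counted but its log2 fold change of 1.12 became 0.77 with the trend removed and missed the threshold (edgeR adjusted p = 0.0528).

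**Figure D3:**
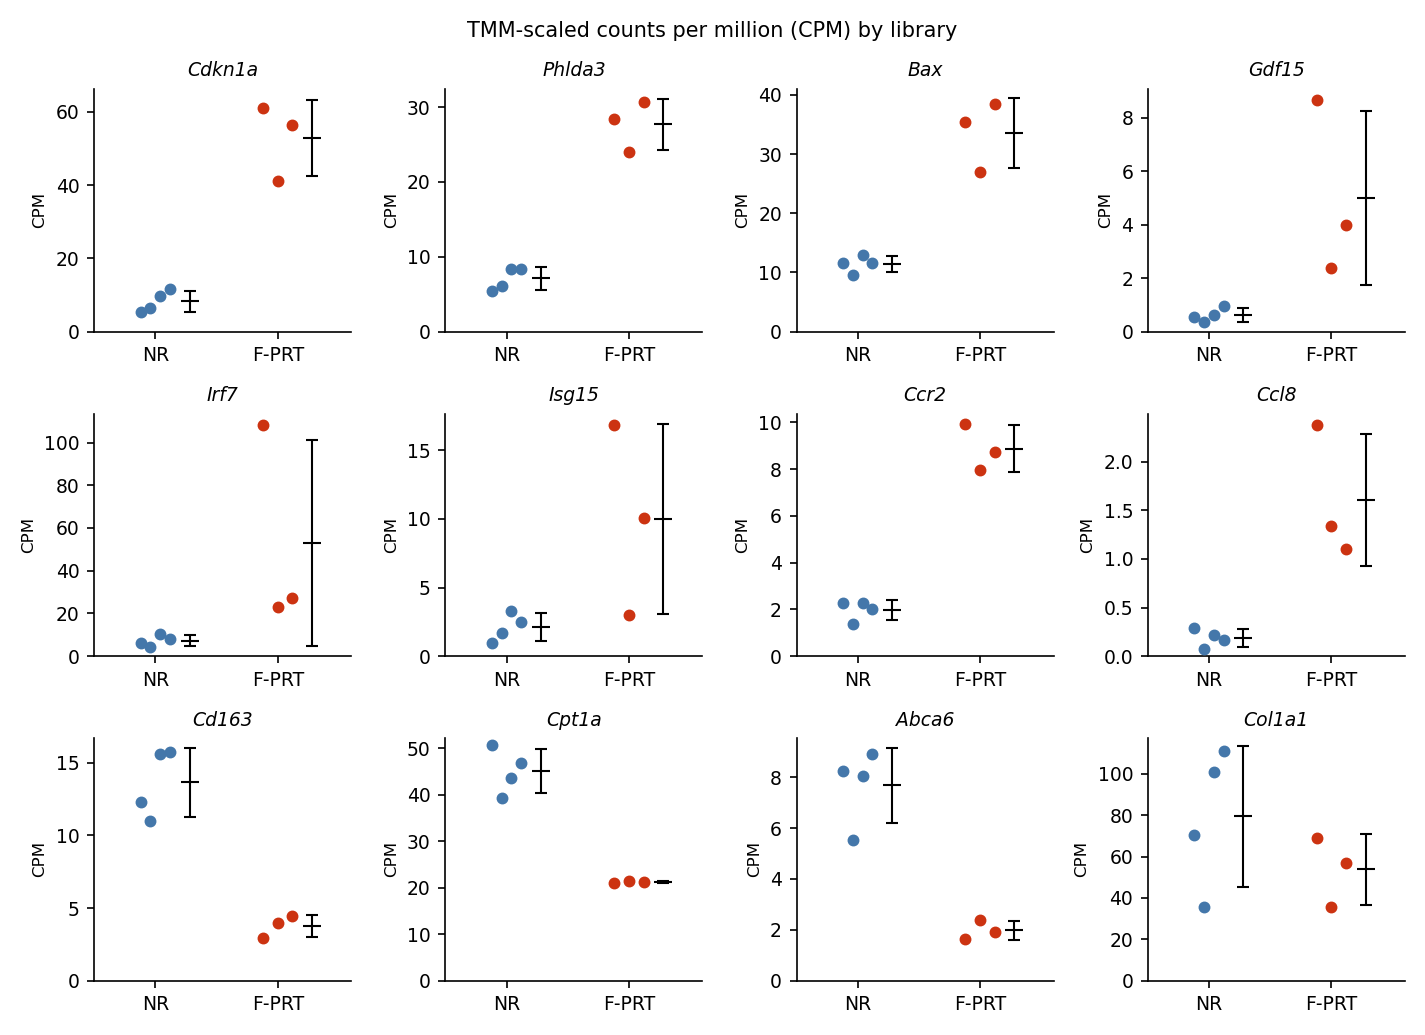
TMM-scaled CPM of 12 genes in each of 4 NR (blue) and 3 F-PRT (red) libraries; black bars are the mean ± SD of each group. Cdkn1a, Phlda3, Bax, Gdf15, Irf7, Ccr2, Ccl8, Cd163, Cpt1a and Abca6 do not overlap between groups, while Isg15 and Col1a1 do.

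Among monocyte genes, Ccr2 was kept. This receptor, with which inflammatory monocytes follow CCL2 and CCL7, measured 2.27, 1.37, 2.25 and 2.02 CPM in NR and 9.95, 7.94 and 8.73 CPM in F-PRT. The groups did not overlap, and the log2 fold change was 2.16 ± 0.18 as counted and 2.32 ± 0.18 with the trend removed (edgeR adjusted p = 0.00306). Ccl8, a monocyte chemokine, was kept as well, from 0.078 to 0.294 CPM in NR to 1.10 to 2.38 CPM in F-PRT. Of 24 tested genes on the macrophage and monocyte list, 8 were higher and 0 lower as counted, against 8.14% and 6.36% of all tested genes. Ccr2 alone was kept. The list's median log2 fold change was 0.63 as counted and 0.45 with the trend removed, and 0.18 with the trend removed and without F-PRT 2. The pan-macrophage genes Adgre1 and Cd68 overlapped between groups (log2 fold changes 0.31 ± 0.28 and 0.45 ± 0.30).

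Of 20 tested cytokine and NF-kB genes, 8 were higher and 0 lower. Ccl2 measured 0.756 to 1.25 CPM in NR and 3.67, 1.86 and 5.55 CPM in F-PRT, all F-PRT libraries above all NR libraries, and was lost by a narrow margin (edgeR adjusted p = 0.0507 with the trend removed). Ccl7 and Cxcl10 had log2 fold changes of 1.80 ± 0.40 and 2.87 ± 0.63 as counted, and both were lost. Il1b stayed below 1 CPM in all 7 libraries and was not called (log2 fold change 0.73 ± 0.35), and Il6 had too few reads to be tested.

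Resident macrophage genes divided. Cd163, a haemoglobin scavenger receptor of tissue-resident macrophages, measured 12.3, 11, 15.6 and 15.7 CPM in NR and 2.96, 3.94 and 4.42 CPM in F-PRT. Every F-PRT library stood at under 5 CPM, and the log2 fold change was -1.85 ± 0.19 as counted and -1.66 ± 0.20 with the trend removed (edgeR adjusted p = 0.0123). Timd4, a phosphatidylserine receptor of self-renewing resident macrophages, fell by 1.76 on the log2 scale as counted and missed the threshold after removal by little (edgeR adjusted p = 0.0507). Gas6, a ligand that bridges dying cells to the TAM receptors of phagocytes, was kept in the other direction, from 93.2 ± 3.57 CPM (SD, n = 4) to 137 ± 4.45 CPM (SD, n = 3). Of the 12 tested genes on this list the others, Lyve1 among them (log2 fold change -0.36 ± 0.15), were not called. The list's median log2 fold change was -0.02 as counted and -0.06 after removal.

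Type I interferon genes had large, uneven fold changes. All 31 tested members of the list had a positive log2 fold change in both fits, with a median of 1.10 as counted and 0.95 with the trend removed; 14 were higher, 0 lower, and Irf7 alone was kept. Irf7, the transcription factor that amplifies the interferon response, measured 6.22, 4.33, 10.3 and 8.27 CPM in NR and 108, 23.1 and 27.2 CPM in F-PRT. F-PRT 2 was several times higher than the other two, yet all 3 exceeded every NR library (log2 fold change 2.85 ± 0.53). Without F-PRT 2, the list's median was 0.595 as counted and 0.52 with the trend removed, and the log2 fold change of Irf7 with the trend removed was 1.66 (edgeR adjusted p = 0.074).

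Ifit1, which binds foreign RNA caps, measured 2.3 to 5.77 CPM in NR and 42.6, 9.51 and 11.1 CPM in F-PRT, without overlap. At an effective length near the median of all genes, the log2 fold change was 2.48 ± 0.53 as counted and 2.51 ± 0.52 after removal, the second just outside the threshold (edgeR adjusted p = 0.0511). Without F-PRT 2 the Ifit1 log2 fold change as counted was 1.45 (edgeR adjusted p = 0.052). Isg15, a ubiquitin-like modifier, measured 0.966 to 3.27 CPM in NR and 16.9, 3.02 and 10.1 CPM in F-PRT, so that F-PRT 3 lay inside the NR range. Ifit3b (log2 fold change 2.83 ± 0.56) and Ifit3 (2.45 ± 0.58) are near-identical copies with fractional counts, and how reads were divided between them is uncertain. Ifit3 measured 4.66 to 12 CPM in NR and 89.6, 16.9 and 19.6 CPM in F-PRT, and Ifit3b 1.64 to 4.11 and 38.7, 8.41 and 8.79 CPM, with F-PRT 2 far above the other libraries. Without F-PRT 2, the Ifit3 log2 fold change as counted was 1.25 (edgeR adjusted p = 0.067) and the Ifit3b log2 fold change 1.71 (edgeR adjusted p = 0.048).

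The promoters of 4 of these genes are shown because they carry the interferon-stimulated response element, the DNA motif bound by the ISGF3 complex and by interferon regulatory factors. The search used its core, GAAA followed by any 2 bases and GAAA again, on both strands, in RefSeq windows of the GRCm38.p6 build from 250 bases before to 50 after a transcript's start. Windows were found for 22 of the 31 tested genes, and 12 of them (54.5%) held the core, against 3.99% of all 27025 genes with a window and 3.37% of 860 other genes called higher. Counted by window, the share was 3.44% of 32851. The list was made of interferon genes, so the 54.5% describes the list and not these libraries. The Irf7 window has no match to these letters. Sequences read 5′ to 3′ along the transcript's strand, with matches in capitals; they lie at chr19:34640639-34640938 (plus strand), chr4:156200769-156201068 (minus), chr8:71537423-71537722 (minus) and chr19:34607707-34608006 (plus).
Ifit1: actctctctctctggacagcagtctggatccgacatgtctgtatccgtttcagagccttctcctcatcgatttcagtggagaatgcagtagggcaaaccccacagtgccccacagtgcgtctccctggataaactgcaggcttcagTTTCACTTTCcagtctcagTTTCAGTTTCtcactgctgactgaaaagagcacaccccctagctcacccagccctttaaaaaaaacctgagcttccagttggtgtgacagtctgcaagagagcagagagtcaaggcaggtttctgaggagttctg
Isg15: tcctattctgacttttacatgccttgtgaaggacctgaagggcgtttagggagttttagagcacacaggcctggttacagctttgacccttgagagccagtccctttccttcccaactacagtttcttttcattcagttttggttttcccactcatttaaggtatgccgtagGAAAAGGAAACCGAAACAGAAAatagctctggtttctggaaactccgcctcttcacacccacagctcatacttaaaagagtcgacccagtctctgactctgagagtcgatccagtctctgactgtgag
Bst2: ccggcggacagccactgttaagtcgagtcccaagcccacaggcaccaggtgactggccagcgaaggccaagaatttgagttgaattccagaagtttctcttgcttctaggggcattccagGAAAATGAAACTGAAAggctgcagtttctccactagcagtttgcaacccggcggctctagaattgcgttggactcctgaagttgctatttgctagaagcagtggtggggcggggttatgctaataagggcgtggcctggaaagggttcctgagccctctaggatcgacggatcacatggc
Ifit3b: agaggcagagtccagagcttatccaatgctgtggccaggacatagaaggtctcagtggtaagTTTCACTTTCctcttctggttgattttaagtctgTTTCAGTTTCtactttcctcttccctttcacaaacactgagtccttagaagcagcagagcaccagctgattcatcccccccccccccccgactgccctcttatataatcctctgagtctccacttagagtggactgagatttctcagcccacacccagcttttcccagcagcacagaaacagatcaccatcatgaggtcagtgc

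Ifit1 and Ifit3b each show a pair of separate matches, on the opposite strand, and Isg15 and Bst2 show runs of overlapping ones. Bst2 (tetherin, which holds budding viruses at the membrane) measured 7.45 to 17.5 CPM in NR and 46.6, 15.6 and 34.4 CPM in F-PRT, with F-PRT 3 inside the NR range. Its log2 fold change was 1.44 ± 0.36 as counted and 1.05 ± 0.36 with the trend removed. A motif match is a description of these letters only.

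Proliferation genes had large fold changes from low levels. Of 34 tested cell cycle genes, 9 were higher, 0 lower and 0 kept, and the list's median log2 fold change was 0.80 as counted and 0.71 after removal. Mki67, the proliferation antigen, measured 1.6, 1.21, 2.93 and 2.88 CPM in NR and 7.06, 4.06 and 3.65 CPM in F-PRT, all above NR, and missed the threshold in both fits (edgeR adjusted p = 0.0509 and 0.0653). Mcm5, a subunit of the replicative helicase, had log2 fold changes of 1.09 ± 0.25 and 1.13 ± 0.24, and E2f1, which drives S-phase genes, 1.48 ± 0.33 and 1.53 ± 0.33. Both are near the median length, and the fold change did not shrink while the adjusted p moved across the threshold. Ccnd1, cyclin D1, stood apart at a higher level and was kept: it measured 36.8 to 46.9 CPM in NR and 161, 113 and 97.2 CPM in F-PRT (log2 fold change 1.51 ± 0.17; named after its values were seen).

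Other kept increases came from varied genes. Ltc4s, the synthase of the inflammatory lipid leukotriene C4, measured 0.966 to 1.46 CPM in NR and 5.23, 4.35 and 5.22 CPM in F-PRT. Ces2e, a carboxylesterase, had a log2 fold change of 1.94 ± 0.26 and Prnd, which encodes the prion-like protein doppel, 1.59 ± 0.28, both without overlap between groups. Apln, the peptide apelin, rose from 15.8 ± 1.78 CPM (SD, n = 4) to 44.3 ± 15.7 CPM (SD, n = 3), and Nes, the intermediate filament nestin, from 36.4 ± 3.37 to 83.6 ± 23.1 CPM (both named after their values were seen). Pcdhgc4, of the clustered protocadherins, had a log2 fold change of 4.61 ± 0.58. Its exons are shared with neighbouring isoform genes and its counts were whole in 1 of 7 libraries, so its reads cannot be assigned with certainty.

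Bc1, a short noncoding RNA of neurons that represses translation, stood at the limit of the length correction. Its transcript of 168 bases in GENCODE M21 is shorter than a typical fragment, and its mean effective length was under 7 bases. The sequence is given because its size is what limits the measurement, with its A-rich middle stretch.
Bc1: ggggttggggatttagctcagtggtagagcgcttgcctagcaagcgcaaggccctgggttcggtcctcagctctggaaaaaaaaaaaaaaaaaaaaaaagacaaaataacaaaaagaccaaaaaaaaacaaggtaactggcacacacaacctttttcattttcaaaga
Bc1 measured 6.18, 4.37, 5.74 and 4.97 CPM in NR and 27.9, 20.1 and 20.9 CPM in F-PRT, clearly apart. The log2 fold change was 2.11 ± 0.16 as counted and 1.5 ± 0.20 with the trend removed. No other tested gene had a shorter effective length.

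Among the 51 kept decreases was Cpt1a, the carnitine palmitoyltransferase that admits fatty acids to mitochondria. It measured 50.7, 39.3, 43.6 and 46.7 CPM in NR and 21.0, 21.5 and 21.3 CPM in F-PRT. The F-PRT libraries were nearly equal, and the log2 fold change was -1.08 ± 0.10 as counted and -0.85 ± 0.10 after removal (edgeR adjusted p = 0.0123). Its muscle isoform Cpt1b differed little, at 418 ± 10.9 CPM (SD, n = 4) and 406 ± 16.4 CPM (SD, n = 3). Of 28 tested fatty acid oxidation genes, 4 were lower and 0 higher, with Cpt1a alone kept, and the median log2 fold change was -0.16 as counted and -0.24 after removal.

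Acsl1, which activates fatty acids to their CoA esters, measured 725 to 741 CPM in NR and 458, 567 and 413 CPM in F-PRT, below NR in every library. Cd36, a fatty acid transporter, measured 1150.3 to 1210.2 CPM in NR and 666 to 927 CPM in F-PRT. Both fell as counted and missed the threshold with the trend removed (edgeR adjusted p = 0.0503 and 0.0559) with log2 fold changes of -0.47 and -0.54. Ppara, the transcription factor of this pathway, fell by 1.52 as counted, with F-PRT libraries at 6.12, 11.9 and 2.58 CPM, and was lost. Cat, the peroxisomal catalase, was kept, from 166 ± 1.27 CPM (SD, n = 4) to 120 ± 9.63 CPM (SD, n = 3).

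Abca6, a lipid transporter of the ABCA family, measured 5.54 to 8.92 CPM in NR and 1.64 to 2.38 CPM in F-PRT (log2 fold change -1.97 ± 0.21; -1.70 ± 0.21 after removal). Cdh23, a cadherin, Lcor, a nuclear receptor corepressor, and Adamtsl3, a matrix-associated glycoprotein, had log2 fold changes of -1.76 ± 0.26, -1.71 ± 0.25 and -1.52 ± 0.22. Their groups did not overlap. The log2 fold change of Adamtsl3 was negative in all 19 alternative settings as counted, at up to -0.22, but was called in 11. It was not called on TPM or with a per-library length offset. The mean TPM of Adamtsl3 was 0.655 in NR and 0.403 in F-PRT. Sgcd, the delta subunit of the sarcoglycan complex at the muscle membrane, measured 10.3 to 14.2 CPM in NR and 4.78 to 7.19 CPM in F-PRT. With an effective length of 1393 bases, its log2 fold change grew from -1.08 ± 0.17 to -1.23 ± 0.19 on removal. Vwa3a (-1.31 ± 0.23), the kinase gene Hipk2 (-1.58 ± 0.25) and Pcdhgb6 (-1.17 ± 0.20) completed the 10 largest; the last of these and Hipk2 had fractional counts in all 7 libraries.

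The fold changes of ribosomal protein genes shrank when the length trend was removed. All 81 tested cytosolic ribosomal protein genes had higher CPM in every F-PRT library than in any NR library, and 69 were called higher and 0 lower. Non-overlap of this kind was seen in 16.7% of all tested genes. The list's median effective length was 444 bases, and its median log2 fold change of 0.51 as counted became 0.11 with the trend removed. Then 0 were called, but 71 of 81 still had a positive log2 fold change, and the median over all tested genes was 0.01. Removing the trend also removes any true change that runs with length, and the 2 cannot be told apart here. Rpl41, the smallest ribosomal protein, measured 138, 135, 130.4 and 118 CPM in NR and 205, 187 and 269 CPM in F-PRT, where F-PRT 4 was highest. The log2 fold change went from 0.76 ± 0.13 to 0.30 ± 0.07. For Rps29 it went from 0.52 ± 0.12 to 0.05 ± 0.07. Rps27l, a ribosomal protein paralog and known p53 target, went from 0.80 ± 0.08 to 0.36 ± 0.07 and was lost (edgeR adjusted p = 0.0501). Rpl12 moved in much the same way, from 0.63 ± 0.10 to 0.29 ± 0.07.

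The short nuclear genes of mitochondria behaved alike. Of 60 tested mitochondrial ribosomal protein genes, 30 were higher and 0 lower as counted, and of 77 nuclear oxidative phosphorylation genes, 22 and 0; none was called after removal. Their median log2 fold changes went from 0.36 to 0.03 and from 0.39 to -0.01. Ndufa12, a complex I subunit, was uniform in NR at 157 to 159.5 CPM and measured 191, 192 and 221 CPM in F-PRT. A log2 fold change of 0.35 ± 0.08 became -0.08 ± 0.07. Without F-PRT 4, the library with the steepest trend, the 3 lists' medians as counted were 0.34 for cytosolic ribosomal proteins, 0.23 for mitochondrial ribosomal proteins and 0.23 for oxidative phosphorylation.

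Long genes showed the mirror image. Of 30 very long structural genes (median effective length 7887 bases), 0 were higher and 8 lower, and their median log2 fold change of -0.52 became -0.23 with 0 called. Ryr2, the sarcoplasmic calcium release channel, measured 854 to 1316 CPM in NR and 601, 781 and 371 CPM in F-PRT, with F-PRT 4 lowest. On removal the log2 fold change went from -0.87 ± 0.25 to -0.44 ± 0.14. Of 16 basement membrane genes 4 were lower; Lama2, a laminin chain of the muscle basement membrane, measured 64.6 to 80.6 CPM in NR and 43.1 to 46.6 CPM in F-PRT, and its log2 fold change went from -0.71 ± 0.09 to -0.43 ± 0.11. That list's median moved from -0.45 to -0.12. Ptprb, an endothelial phosphatase with an effective length of 11382 bases, went from -0.87 ± 0.10 to -0.38 ± 0.16.

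**Figure D4:**
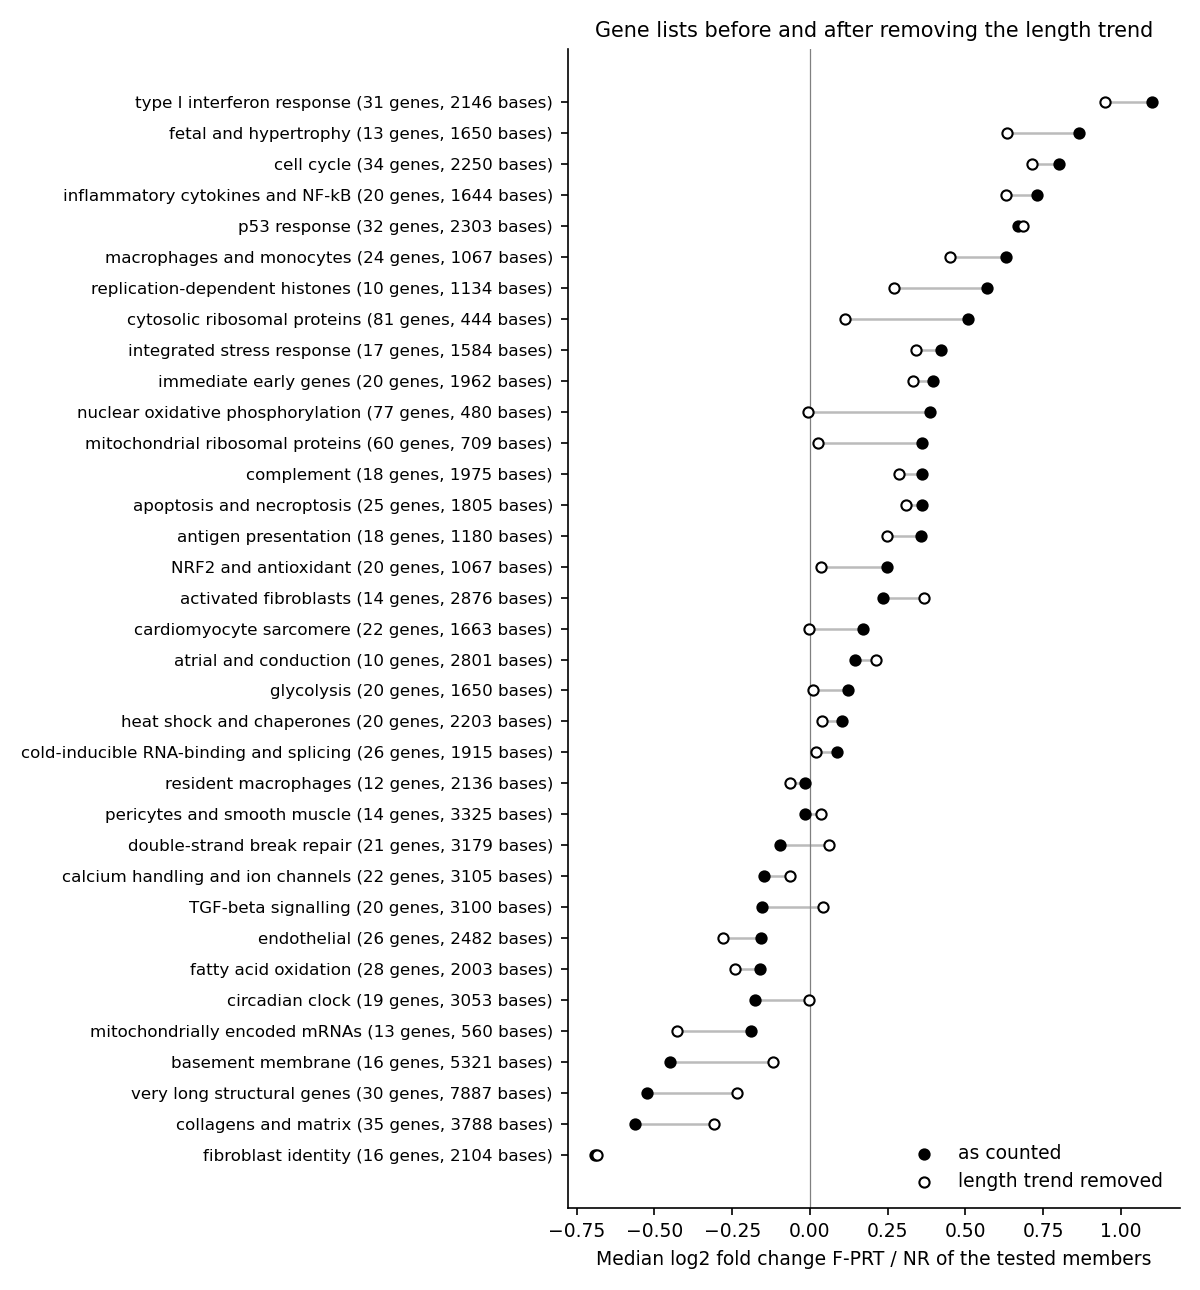
Median log2 fold change of F-PRT over NR for each gene list with at least 10 tested members, as counted (filled) and with the length trend removed (open); labels give the tested genes and their median effective length. Ribosomal and oxidative phosphorylation lists move towards 0, while the p53, cell cycle and fibroblast identity lists, of median lengths 2104 to 2303 bases, move by under 0.1.

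Losing the call did not always go with a smaller fold change. Of the 1896 lost genes, 925 retained under 50% of their log2 fold change when the trend was removed and 388 retained at least 80%, bounds chosen after the values were seen. The first set had a median effective length of 649 bases among its higher and 5780 bases among its lower calls. In the second these were 1950 and 2570 bases, nearer to the 2280 bases of all tested genes. Of the kept genes, 131 of 164 retained at least 80%. The natriuretic peptides lay between. Nppa measured 68.9, 82.7, 64.2 and 49.9 CPM in NR and 202, 141 and 98.7 CPM in F-PRT, without overlap, and its log2 fold change went from 1.15 ± 0.23 to 0.83 ± 0.27. Nppb went from 1.18 ± 0.19 to 0.83 ± 0.23. On the fetal and hypertrophy list 6 of 13 tested genes were higher and 0 lower, and Gdf15 and Rcan1, a calcineurin regulator, were kept.

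Among the largest lost decreases, Nr2c2, an orphan nuclear receptor, measured 11.6 to 13.8 CPM in NR and 4.06, 5.91 and 1.16 CPM in F-PRT, and Pdpr, a regulator of pyruvate dehydrogenase phosphatase, 49.8 to 70.6 and 21.3, 32.2 and 5.82 CPM. F-PRT 4 was the lowest library for both. C7, a complement component, and Pakap, an anchoring protein for protein kinase A, had log2 fold changes of -1.76 ± 0.43 and -1.64 ± 0.36. Pakap had fractional counts in all 7 libraries. Rad9b, a paralog of a checkpoint clamp subunit, rested on 1 library: F-PRT 4 held 23.9 CPM against 3.43 and 2.90 in the other two.

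Among the 36 gained genes, the 28 higher ones had a median effective length of 5179 bases and the 8 lower ones 920 bases. Map1b, a microtubule-associated protein of 11053 bases effective length, measured 4.04 to 6.16 CPM in NR and 9.21, 5.68 and 6.11 CPM in F-PRT, overlapping as counted. The value as counted, 0.56 ± 0.21 became 1.04 ± 0.20 (edgeR adjusted p = 0.0474). Zfhx3, a transcription factor, Bambi, a pseudoreceptor that dampens TGF-beta signalling, and Ccnd2, cyclin D2, had 0.80 ± 0.15, 0.69 ± 0.13 and 0.65 ± 0.12 after removal. In the lower direction, Gstm1, a glutathione transferase, had -0.48 ± 0.08, Nudt7, a peroxisomal CoA hydrolase, -0.47 ± 0.09, Akap7 -0.46 ± 0.09 and Apbb1 -0.40 ± 0.08.

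Matrix genes were not higher 2 weeks after irradiation in these libraries. Of 35 tested collagen and matrix genes, 0 were higher and 2 lower (Ogn and Thbs2) as counted, and 0 were called after removal. Over all tested genes, 8.14% were called higher and 6.36% lower as counted. The list's median log2 fold change was -0.56 as counted and -0.31 after removal. Col1a1, a chain of fibrillar collagen I, measured 70.6, 35.5, 101 and 111 CPM in NR and 69.2, 35.5 and 56.8 CPM in F-PRT, overlapping almost wholly. Its log2 fold change was -0.56 ± 0.36 and -0.22 ± 0.39 after removal. Col3a1 (-0.34 ± 0.34), Postn (0.63 ± 0.36), Timp1 (1.43 ± 0.44) and Tgfb1 (0.21 ± 0.18) were not called either, Timp1 at an edgeR adjusted p of 0.0576. On the activated fibroblast list 2 of 14 were higher and 0 lower, Meox1 and Thbs4, both lost.

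Of 16 tested fibroblast identity genes, 3 were lower and 0 higher as counted and 0 were called after removal. The list's median log2 fold change was -0.69 as counted and -0.68 after removal, at a median effective length of 2104 bases, again near that of all genes. Pdgfra, the alpha receptor for platelet-derived growth factor, measured 24.7, 12.9, 24.4 and 28.5 CPM in NR and 7.45, 6.84 and 12 CPM in F-PRT, all below NR, and Scara5, a ferritin receptor, 11.5 to 25.2 and 5.45 to 10.9 CPM. Both were lost (edgeR adjusted p = 0.142 and 0.0849), with log2 fold changes going from -1.35 to -0.97 and from -1.49 to -1.29. Abca8a, a lipid transporter, was lost as well, from -1.09 to -0.91, and its sign turned on TPM. Of 26 endothelial genes, 1 was higher and 5 lower as counted, and 0 were called after removal. Tek, the angiopoietin receptor, measured 27.7 to 41.6 CPM in NR and 12.1 to 20.5 CPM in F-PRT, and was lost (edgeR adjusted p = 0.0805). Pecam1 overlapped (log2 fold change -0.13 ± 0.20). The endothelial list's median was -0.16 as counted and -0.28 after removal, and 0.06 as counted without F-PRT 3.

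Markers of other cell types moved unevenly, and their part in these results was not tested. The summed level of 11 mesothelial and epicardial markers spanned 7.37 to 40.0 TPM in NR and 6.64 to 14.5 TPM in F-PRT, with Msln at 2.90 and 4.06 CPM in NR 3 and NR 4 and below 0.4 CPM elsewhere. The 9 erythroid markers summed to 1636 to 4021 TPM and 945 to 4408 TPM. The 20 lymphocyte markers summed to 8.59 to 17.4 TPM and 7.44 to 14.1 TPM, and 9 could be tested, of which 1 (Ighd) was lower. The cardiomyocyte sarcomere list had 2 of 22 genes higher and 0 lower, near the 8.14% of all tested genes called higher. Its median log2 fold change was 0.17 as counted and 0.00 after removal. Myh6 (-0.09 ± 0.20), Myh7 (1.27 ± 0.55) and Atp2a2 (-0.56 ± 0.22) were not called. The estimate for Myh6 depended on the measure. Its mean TPM was 6065 in NR and 10291 in F-PRT, with overlap between libraries, and its mean effective length 3415 and 2147 bases.

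A gene's effective length in RSEM is weighted by the estimated abundance of its isoforms, and for some genes it differed between the groups. Vps13c, a lipid transfer protein, had a mean effective length of 9968 bases in NR and 3633 bases in F-PRT, with F-PRT 4 at 1951. Its counts fell by 1.18 on the log2 scale, while its mean TPM was 3.12 in NR and 3.89 in F-PRT. Birc6 (4586 and 2567 bases), Lamc1 (6009 and 3470) and Abca8a (4617 and 2050) likewise had lower counts and similar or higher TPM in F-PRT. Of all tested genes, 337 (2.37%) had an effective length lower in F-PRT by over 0.5 on the log2 scale and 185 (1.3%) higher. Among genes called lower, 41 of 904 (4.54%) were shortened by that much and 10 (1.11%) lengthened. Among the 164 kept genes, 9 (5.49%) were shortened and 1 (0.61%) lengthened. The removed trend used each gene's mean effective length over the libraries, so it did not correct such shifts, in kept genes either. The TPM differences of Vps13c, Birc6, Lamc1 and Abca8a were not called, so that only the sign of the estimate turned.

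The authors' TPM gave fewer calls. With limma on log2(TPM + 1), 34 genes were higher and 20 lower, 47 of them shared with the 2060. With TPM scaled by TMM factors before the log, an alternative added after seeing the data, the numbers were 842 and 714, with 1178 shared. TPM has the same sum in every library, so that the mitochondrial share, which spanned 24.2 to 43.8%, enters the TPM of all other genes.

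Against standard dose-rate protons, in a fit of all 11 libraries, 0 of 14556 genes were called by edgeR, and 2315 had an unadjusted p under 0.05. DESeq2 was not run on that contrast. Both irradiated groups share the NR libraries. For Cdkn1a, S-PRT minus NR was 2.52 on the log2 scale, and F-PRT minus S-PRT 0.15 ± 0.35. For Ccr2 these values were 2.33 and -0.15 ± 0.25, for Irf7 3.07 and -0.20 ± 0.57, for Cd163 -1.51 and -0.33 ± 0.22, and for Cpt1a -0.73 and -0.34 ± 0.13. Differences between the irradiated groups, none past the threshold, included Lcor (-1.25 ± 0.23), Abca6 (-1.08 ± 0.19) and Sgcd (-0.85 ± 0.16), each with an edgeR adjusted p of 0.148. Rad9b (2.26 ± 0.60), Pcdhgc4 (1.61 ± 0.46), C7 (-1.44 ± 0.50) and Pakap (-1.41 ± 0.35) had larger values (edgeR adjusted p 0.176 to 0.224). The length trend was not removed from this contrast. Its median was -0.48 for the very long structural genes and 0.19 for the cytosolic ribosomal proteins.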

How the data were processed

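RNA-seq of poly(A)-selected, strand-marking NEBNext libraries was measured in 7 heart apex samples, and 4 S-PRT libraries entered only the comparison of the 2 dose rates. Per the submitters' processing notes, the tools were FastQC, cutadapt, STAR, RSEM and edgeR, with both GRCm39 and mm10 named as builds, so no coordinates are given beyond RefSeq promoter windows, which carry their own build. The deposited tables hold, per gene, the authors' RSEM expected count, TPM, length and effective length. No source used here says if counting was by strand; reads of overlapping or antisense genes may therefore be mixed, as may those of near-identical copies. Of 55414 gene identifiers, 52081 had a symbol.

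Expected counts were rounded and tested with edgeR 4.0.16 in R 4.3.3 (quasi-likelihood, TMM, filterByExpr with a minimum count of 10 and total of 15, 5 residual degrees of freedom, Benjamini-Hochberg adjustment over all tested genes). For the second fit, each library's log2 CPM (prior count 2) minus the 7-library mean was smoothed by lowess (span 0.3) on log2 mean effective length, and the smooth was added to the offsets. The procedure was tested on simulated data. Deposited TPM values were tested with limma 3.58.1 on log2(TPM + 1), a scale that understates the change of low genes. DESeq2 1.42.0, sva 3.50.0 and other settings were alternatives. Replicate counts differed beyond sampling noise in every pair of one group. With 4 and 3 libraries, precision is set by the spread between libraries.

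Named genes were, at a mean log2 CPM of at least 1 and without predicted genes, the 10 largest kept changes in each direction, the 4 largest lost and gained in each, up to 4 called members with the smallest p in each list (2 where none was called), and a fixed set of 19 genes. Outside this rule, Myl2, Myl3, Myl7, Sln, Rrm2b, Eda2r, Zmat3, Trp53inp1, Aen, Gtse1, Ccng1, Fas, Isg15, Adgre1, Cd68, Lyve1, Bst2, Ccnd1, Apln, Nes, Cpt1b, Rpl41, Rps29, Gm29216 and mt-Co1 were chosen after their values were seen. Members and gene lists were chosen with earlier results of these data known. The numbers 2, 3 and 4 are shared by both groups. The deviations of same-numbered libraries from their group means correlated at -0.156, -0.432 and 0.257. Differently numbered libraries ran from -0.453 to 0.53. No pairing was used, though these values cannot exclude one. Results for some genes are not reported here.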

Additional observations from a re-analysis of the deposited data

Results flagged for a closer look

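Among 159 values of named genes and library measures tested in the 4 NR libraries, 4 had 1 library far from the other 3. Chance gives about 1 in 20, so these 4 are no more than that rate gives. In NR 2, Abcc9 stood at 283 CPM against 240 to 246, Ppara at 22 CPM against 17.8 to 18.3, and Ptprb at 72.1 CPM against 64.0 to 64.7. In NR 1, Ogn stood at 84.1 CPM against 75.8 to 77.2. In each case the gap to the next library was more than 0.829 of the range of the group. All 4 genes were called lower in F-PRT as counted and lost with the length trend removed. The F-PRT group, with 3 libraries, could not be examined in this way.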

How the results depend on the processing

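As counted, scaling by library size gave 80 higher and 44 lower calls, limma on log2(TPM + 1) gave 34 and 20, and limma on log2(TPM + 0.1) gave 36 and 24. Lower calls numbered 1389 without a count filter, 1440 with DESeq2's Wald test and 1813 with 1 surrogate variable. With the length trend removed, scaling by library size gave 52 higher and 19 lower calls, no count filter 691 and 435, and all 11 libraries 343 and 191. Leaving out 1 library at a time gave 23 to 1795 higher and 16 to 1681 lower calls as counted, and 12 to 514 and 0 to 333 with the trend removed; the difference in length correlation ran from -0.814 to -0.604, where the smallest p possible is 0.067 to 0.1. The causes were not tested. The replicate number as a block gave 22 higher and 7 lower calls as counted, and 8 and 1 with the trend removed. Whether the numbers pair the libraries is not known, and the cause of these losses was not tested.

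Directions turned for few genes. The alternatives limma on log2(TPM + 1), limma on log2(TPM + 0.1), TMM-scaled TPM (chosen after seeing the data) and a per-library length offset are given in that order. The Abca8a log2 fold change was 0.108, 0.12, 0.0793 and 0.0962. The Birc6 log2 fold change was 0.295, 0.323, 0.261 and 0.305. The Lamc1 log2 fold change was 0.0835, 0.0819, 0.0481 and 0.115. The Vps13c log2 fold change was 0.23, 0.285, 0.2 and 0.278. The effective lengths of all 4 were lower in F-PRT. The Myh6 log2 fold change was 0.703 with the length offset. The Fabp4 log2 fold change, 0.147 with all libraries, ranged from -0.468 without F-PRT 4 to 0.401 without F-PRT 2. Cdkn1a, Phlda3 and Ccr2 were called in all 19 alternatives as counted and all 16 with the trend removed.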

Other observations

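Further gene lists are given by their counts, beside 8.14% higher and 6.36% lower calls as counted over all tested genes. Immediate early genes had 2 of 20 higher, with Maff, a small MAF factor, kept (3.87 ± 0.471 CPM in NR, SD, n = 4, and 7.66 ± 1.85 CPM in F-PRT, SD, n = 3). The integrated stress response had 4 of 17 higher, with Sesn2 kept and Ddit3, the factor CHOP, lost at log2 fold changes of 1.03 and 0.70. Of 20 antioxidant genes 6 were higher and 1 lower (Cat), and of 18 complement genes C1qa and C1qb were higher, both lost.

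Higher and lower calls as counted were 5 and 0 of 10 replication-dependent histones, 3 and 0 of 25 apoptosis genes, 3 and 0 of 26 cold-inducible and splicing genes, and 2 and 0 of 20 glycolysis genes. They were 1 and 0 of 5 neutrophil, 18 antigen presentation and 20 heat shock genes, and 2 and 0 of 10 atrial and conduction genes. They were 0 and 1 of 14 pericyte and smooth muscle, 22 calcium handling, 19 circadian and 21 double-strand break repair genes, and 0 and 2 of 20 TGF-beta genes. None of 13 mitochondrially encoded mRNAs, 7 erythroid, 2 adipocyte, 6 mesothelial, 3 skeletal muscle or 7 Schwann cell and neuron genes was called.

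The median log2 fold changes as counted were 1.19 for the neutrophil, 0.57 for the histone and -0.97 for the mesothelial genes, and 0.79, 0.27 and -0.99 with the trend removed.

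A predicted gene outside the naming rule had a larger difference. Gm29216, an unprocessed pseudogene on chromosome 1, measured 39.1, 80.7, 26.1 and 33.4 CPM in NR and 7025, 7062 and 9581 CPM in F-PRT (log2 fold change 7.46 ± 0.43, edgeR adjusted p = 0.000295). Of its 462 words of 31 bases, 449 (97.2%) occur in the mitochondrial transcript mt-Co1, so reads of the 2 cannot be told apart with certainty. Scaled by library size, the S-PRT libraries held 1200.0, 1200.0, 310.0 and 77.5 CPM.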
